A study of Homo sapiens with 12 samples.

Results

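The genes described here are 44 genes of autophagy and the lysosome, chosen by name from the 26485 genes counted in each library of OVCAR8 cells, a line established from human ovarian cancer. All 44 were counted, and all 44 passed the filter on low counts that left 14865 genes for testing. RNA sequencing was run on polyA RNA from cells of 4 groups with 3 libraries each, 12 in all. Control cells received vehicle, and the other groups received 150 nM EC359, a small-molecule inhibitor of the leukemia inhibitory factor receptor (LIFR), 100 nM trametinib, an inhibitor of the kinase MEK, or both agents (combination). Every group shared the same cell line, RPMI medium with 10% FBS and a treatment of 7 h. The study asked how LIFR inhibition changes the response of Ras/Raf-driven ovarian cancer cells to trametinib. Libraries held between 24790392 and 32467283 counted read pairs. Of 9 markers of ovarian epithelium, 6 exceeded 1 CPM (counts scaled to library size) in every library (PAX8, WT1, EPCAM, KRT7, KRT8 and KRT18). That list summed to 4015 to 4097 CPM in control, 3971 to 4016 in EC359, 3582 to 3692 in trametinib and 3741 to 3893 in combination libraries. The leukocyte markers PTPRC and CD3E and the fibroblast marker DCN were at 0 in all libraries. In no group did any of 4 endothelial markers exceed 1 CPM in every library. The fibroblast list summed to 416 to 436 CPM in control, 219.9 to 233 under EC359, 515 to 526 under trametinib and 315 to 336 under the combination. COL1A1 was the only one of its 6 genes above 1 CPM in every library. Of 5 leukocyte markers only CD68, itself a lysosomal protein, exceeded 1 CPM in every library, and their sum stayed between 48.2 and 61.0 CPM in all 12 libraries. The part of these lists in the results was not tested. The labels do not say whether the libraries of a group came from separate cultures, so p-values measure the spread between these samples, which may be technical. In bulk RNA, fewer cells that express a gene and less RNA per cell cannot be told apart.

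Macroautophagy encloses cytoplasmic cargo in a double membrane, the autophagosome, and delivers it to the lysosome for breakdown. The ULK1 kinase complex starts the process, the class III PI3-kinase marks the membrane, ATG2 and ATG9 feed it with lipid, and the ATG8 and ATG12 conjugation reactions attach ATG8 proteins to it, where cargo receptors bind them. Lysosomal hydrolases work in an acid lumen that the V-ATPase maintains, and the MiT/TFE transcription factors drive many genes of both systems through E-box sequences known as CLEAR elements. In growing cells mTORC1 restrains ULK1 and the MiT/TFE factors.

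Promoter sequence from RefSeq (GRCh38.p14, 250 bases before to 50 bases after each annotated gene start) was at hand for 38 of the 44 genes, in 49 windows. RB1CC1, UVRAG and the lysosomal genes LAMP2, ATP6V1H, CTSB and HEXA had no window and were not searched. The E-box of CLEAR elements, CACGTG, reads the same on both strands and lay in the windows of 6 genes. The sites are shown because these genes carry the only E-boxes of this kind found among the 38, and because their expression moved in different directions. Each is 30 bases, 5′ to 3′ on the strand of the gene, with the first E-box of the window in capitals.
LAMP1: accaggccgggtCACGTGggtccagggtca
MCOLN1: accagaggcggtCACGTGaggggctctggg
CTSD: gccggccgcgccCACGTGaccggtccgggt
ATG14: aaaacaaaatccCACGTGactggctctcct
ATP6V0D1: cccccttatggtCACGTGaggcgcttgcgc
ATG3: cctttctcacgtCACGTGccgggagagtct

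These sites lie at chr13:113297035-113297064 (plus strand) for LAMP1, chr19:7522571-7522600 (plus) for MCOLN1, chr11:1763957-1763986 (minus) for CTSD, chr14:55411834-55411863 (minus) for ATG14, chr16:67481199-67481228 (minus) for ATP6V0D1 and chr3:112561963-112561992 (minus) for ATG3. All 6 sites also held the longer core TCACGTG on one strand or the other, which contains the E-box. The LAMP1 window held 6 E-boxes, and 4 of them stand close together before its start, at chr13:113297039-113297153 on the plus strand.
LAMP1 upstream: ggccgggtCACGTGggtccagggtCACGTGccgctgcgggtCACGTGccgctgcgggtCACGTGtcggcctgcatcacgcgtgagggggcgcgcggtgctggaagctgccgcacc

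CACGTG was found in 12.2% of the 49 windows and in 7.26% of all 35116 promoter windows of the same length, and TCACGTG in 12.2% and 3.71%. On both strands, TGACNNNGC, the core of antioxidant response elements, was found in windows of 8 genes, or 16.3% of the 49 windows against 13.3% of all windows. TGATGNAA, the core of ATF4 elements, was found in 0 windows of the 38 genes and in 3.62% of all windows, and TGANTCA, the AP-1 site, in 1 window (TFE3) and in 7.71% of all windows. GABARAPL1, the gene with the largest change in expression, had none of these motifs. Its 60 bases before the start, at chr12:10212817-10212876 on the plus strand, are shown because they hold the palindrome of a cAMP response element, in capitals, a motif that was searched only after this sequence had been read.
GABARAPL1 upstream: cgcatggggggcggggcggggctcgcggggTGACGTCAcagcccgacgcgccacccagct

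The pattern TGACGNCA was found on either strand in windows of 4 of the 38 genes (GABARAPL1, MITF, ATG2B and ATG16L1), or 8.16% of the 49 windows against 3.51% of all windows. A match of letters is a description of the sequence and was not tested as a binding site.

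In control cells the genes differed widely in level. Scaled to transcript length as TPM (means of 3 libraries), SQSTM1 was highest at 297 ± 3.84 (SD), followed by LAMP1 at 258 ± 6.34, CTSB at 195.6 ± 1.99 and GABARAP at 186 ± 4.58. These 4 differed from one another by more than their SDs. MITF at 2.73 ± 0.190, TFEB at 1.64 ± 0.241 and ULK2 at 0.379 ± 0.108 TPM were lowest.

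Most of the 44 genes were higher than control with EC359 and with the combination, and fewer were called with trametinib. With EC359, 35 of the 44 changed against control, 30 upward and 5 downward, and 9 were not called (edgeR quasi-likelihood test, Benjamini-Hochberg adjusted p-value below 0.05 over all genes). Among all 14865 genes tested 61.1% changed, 30.8% upward and 30.3% downward. With trametinib, 14 of the 44 were higher, 3 lower and 27 not called, against 28.2% of all genes changed, 13% upward and 15.2% downward. With the combination, 30 were higher, 8 lower and 6 not called, against 69.6% of all genes changed, 35% upward and 34.7% downward. Every library lay above every control library for 31 of the 44 with EC359, 18 under trametinib and 31 under the combination (32.4%, 19.7% and 36% of all genes), and below for 4, 4 and 8 (32.3%, 20.4% and 35.8%). The median log2 fold change of the 44 was 0.23 with EC359, 0.06 under trametinib and 0.30 under the combination, beside medians over all genes of -0.01, 0.00 and -0.01. The 3 comparisons share the control libraries. Scaling by total counts alone lowered the median of all genes to -0.15 with EC359, to -0.14 with the combination, and to -0.16 in the combination against trametinib. Under that scaling 23 of the 44 were higher and 7 lower with EC359 (median 0.09), and 26 higher and 12 lower with the combination (median 0.16), against 21% of all genes higher and 44.9% lower with EC359 and 25.8% and 45.8% with the combination. With trametinib, 20 of the 44 were then higher and 2 lower, with a median of 0.09 beside 0.03 over all genes (16.7% higher, 11.9% lower). Under this scaling the count and the median for trametinib were close to those for EC359. The medians of all genes were not close, at -0.15 with EC359 and 0.03 with trametinib, so relative to all genes the 44 still lay further up with EC359.

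**Figure D1:**
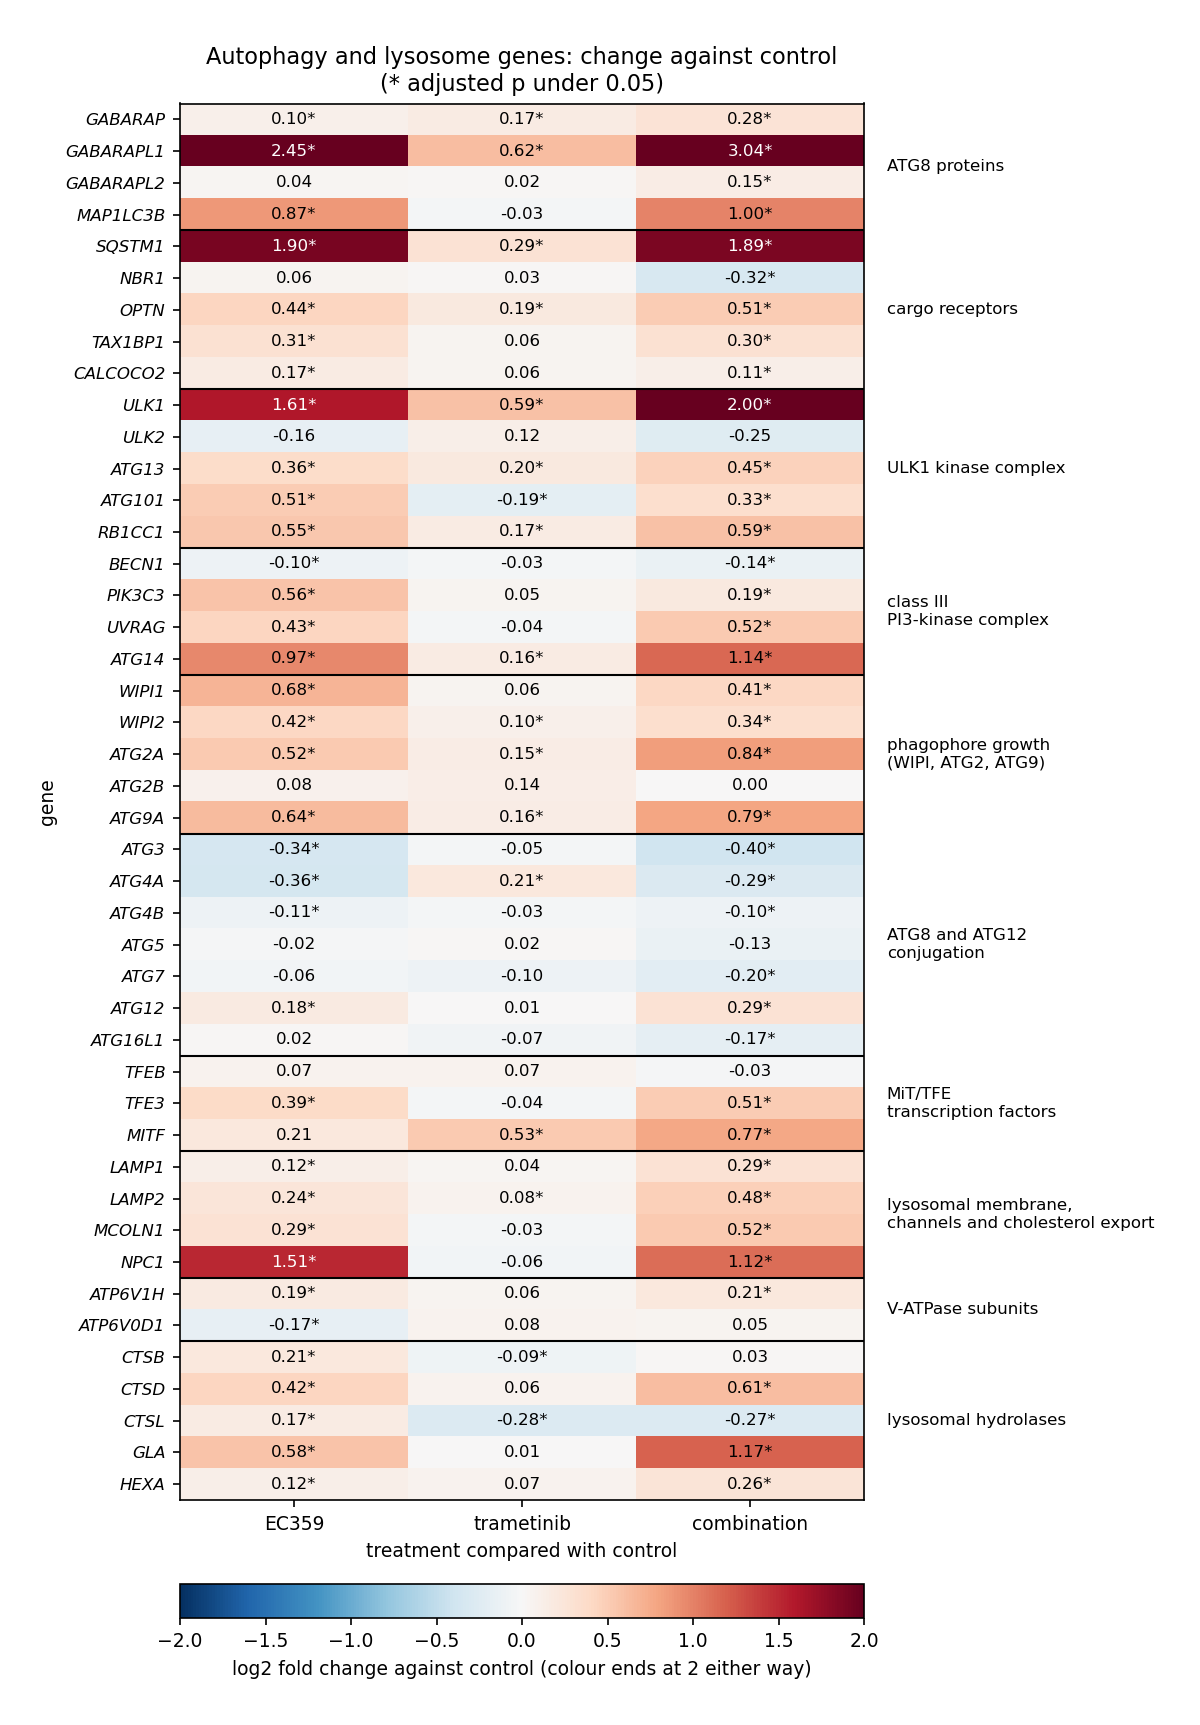
Log2 fold change against control of each of the 44 genes (rows, grouped by role) with EC359, trametinib and the combination (columns); the colour scale ends at 2 in either direction and asterisks mark an adjusted p-value under 0.05. GABARAPL1, SQSTM1, ULK1 and NPC1 stand out with EC359, and GLA and ATG14 join them with the combination. The conjugation genes hold 5 of the 8 genes called lower with the combination.

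Differentially expressed genes (DEGs) also had to change at least 2-fold. GABARAPL1, SQSTM1, ULK1 and NPC1 were DEGs with EC359 (4 of 44, against 4.19% of all genes called higher by this rule). GABARAPL1, ULK1, SQSTM1, GLA, ATG14 and NPC1 were DEGs with the combination (6 of 44, against 7.27% of all genes). None of the 44 was a DEG with trametinib and none was a DEG in the lower direction in any comparison. DESeq2 also gave 0 lower DEGs and 0 with trametinib, and at an unadjusted p-value both tools again gave 0. Those percentages were 0.478% for higher and 0.955% for lower DEGs with trametinib, 2.79% for lower DEGs with EC359 5.87% for lower DEGs with the combination and 5.48% for lower DEGs in the combination against trametinib.

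ATG8 proteins coat the autophagosome membrane and bind cargo receptors. GABARAPL1 (chr12:10212890-10223125, plus strand, in the hg38 annotation of the files) was measured at 23.5, 22.8 and 21.9 CPM in the control libraries. It rose to 123.6, 125 and 123.7 CPM with EC359, to 34.4, 35.1 and 35.1 with trametinib, and to 186, 189 and 185.0 with the combination. The 4 groups did not overlap, and their order was control, trametinib, EC359, combination. Its expression was 5.48-fold higher with EC359 (log2 2.45 ± 0.04 (SE), adjusted p = 3.08e-50), 1.54-fold higher with trametinib (0.62 ± 0.04, adjusted p = 4.56e-18) and 8.22-fold higher with the combination (3.04 ± 0.04, adjusted p = 1.04e-55). The combination also exceeded EC359 alone 1.501-fold (log2 0.59 ± 0.03, adjusted p = 1.90e-24).

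MAP1LC3B, which encodes the ATG8 protein LC3B, is given in full because it lay at the 2-fold limit, a choice made after its values were seen. It was at 99.8, 93.5 and 96.4 CPM in control, 180.6, 175 and 174 under EC359, 94.4, 96.4 and 92.0 under trametinib, and 192, 190.4 and 197 under the combination. Trametinib overlapped control, and the EC359 and combination libraries lay above both and did not overlap each other. It rose with EC359 (log2 0.87 ± 0.03, adjusted p = 6.59e-33) and with the combination (0.9997 ± 0.03, a fold of 1.9996, adjusted p = 4.43e-36). DESeq2 placed 7 of the 44 rather than 6 past 2-fold in the combination. Reads of MAP1LC3B may be split with its near-identical copy MAP1LC3B2, so the side of the 2-fold limit on which it falls is uncertain. GABARAP was higher than control in every treatment (log2 0.10, 0.17 and 0.28), but its value with EC359 was -0.03 under total-count scaling and it was not called without EC359 replicate 1 or control replicate 2 (adjusted p = 0.0868 and 0.0772). GABARAPL2 was called with the combination only (0.15 ± 0.06, adjusted p = 0.0224), but not without control replicate 3 or combination replicate 2 (adjusted p = 0.137 and 0.0876) nor under total-count scaling (adjusted p = 0.898).

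The make-up of the ATG8 transcripts differed between the groups. Summed over the 4 genes, the level per length was 372 ± 8.22 TPM in control, 565 ± 3.31 under EC359, 421 ± 12.1 under trametinib and 669.8 ± 9.92 under the combination. GABARAPL1 made up 7.80% ± 0.184 (SD, n = 3) of that sum in control, 10.9% ± 0.274 with trametinib, 26.4% ± 0.288 with EC359 and 32.7% ± 0.651 with the combination. The share of GABARAP was 49.98% ± 0.509 in control, 51.2% ± 1.08 with trametinib, 33.3% ± 0.765 with EC359 and 31.0% ± 0.882 with the combination. The sums were scaled by library totals alone, unlike the fold changes, while the shares do not depend on that scaling. These shares are descriptions and carry no test.

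**Figure D2:**
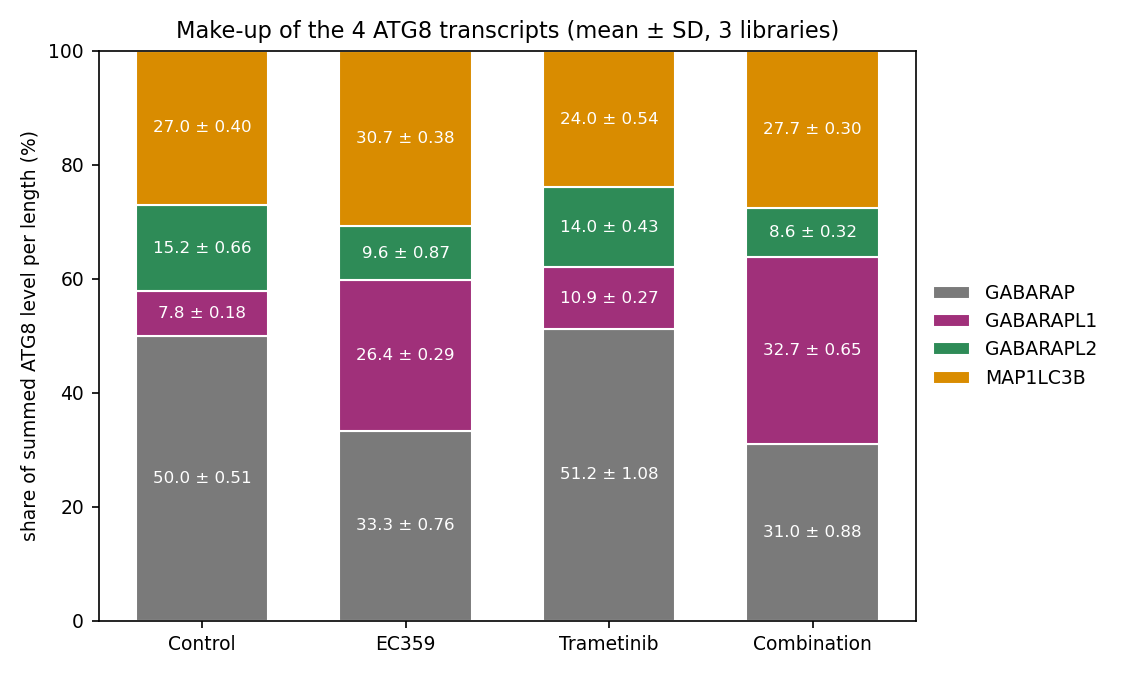
Share of each of the 4 ATG8 genes in their summed level per length (percent, mean of 3 libraries with SD printed in the bars) in the 4 groups. GABARAPL1 grows from 7.80% in control to 32.7% with the combination, and GABARAP shrinks from 49.98% to 31.0%.

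Cargo receptors link ubiquitinated proteins or organelles to ATG8 proteins. SQSTM1, which encodes p62, a receptor that is itself degraded by autophagy, lies at chr5:179806388-179838077 (plus strand). It was measured at 416, 424 and 407 CPM in control, 1578, 1570.3 and 1508 under EC359, 502, 504.0 and 515 under trametinib, and 1498, 1558 and 1565 under the combination. EC359 and combination libraries overlapped each other and lay far above trametinib, which in turn lay above control. The increase was 3.73-fold with EC359 (log2 1.90 ± 0.02, adjusted p = 1.36e-54), 1.22-fold with trametinib (0.29 ± 0.02, adjusted p = 2.38e-15) and 3.71-fold with the combination (1.89 ± 0.02, adjusted p = 1.45e-54). Of the other receptors, OPTN and TAX1BP1 rose with EC359 (0.44 and 0.31) and with the combination (0.51 and 0.30), and OPTN also with trametinib (0.19). CALCOCO2 was higher with EC359 (0.17 ± 0.03) and with the combination (0.11 ± 0.03), but under total-count scaling it was at 0.03 and -0.03 and not called in either (adjusted p = 0.357 and 0.494). NBR1, a receptor for ubiquitinated cargo and peroxisomes, is given in full because it took another course, a choice made after its values were seen. It stood at 89.5, 87.6 and 87.2 CPM in control, 92.2, 88.6 and 95.0 under EC359, 88.9, 94.7 and 86.1 under trametinib, and 72.8, 70.9 and 67.4 under the combination. Only the combination libraries lay apart, all below the rest, and NBR1 fell by 0.32 on the log2 scale there (SE 0.04, adjusted p = 1.56e-11). Some exon bases of SQSTM1 are shared with C5orf45 and MGAT4B on the opposite strand, and the counting used strand.

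The ULK1 complex joins the kinase ULK1 or ULK2 with the scaffolds ATG13, ATG101 and RB1CC1 (FIP200). ULK1 (chr12:131894734-131923162, plus strand) was measured at 26.0, 27.5 and 28.1 CPM in control, 82.2, 81.8 and 85.0 under EC359, 41.6, 40.6 and 40.6 under trametinib, and 108.3, 109 and 110.9 under the combination. As for GABARAPL1, the 4 groups did not overlap and followed the order control, trametinib, EC359, combination. ULK1 rose 3.04-fold with EC359 (log2 1.61 ± 0.04, adjusted p = 1.68e-39), 1.503-fold with trametinib (0.59 ± 0.04, adjusted p = 3.12e-17) and 4.01-fold with the combination (log2 2.004 ± 0.04, adjusted p = 5.72e-45). ATG13 and RB1CC1 were higher in all treatments, by 0.36 and 0.55 with EC359, 0.20 and 0.17 with trametinib, and 0.45 and 0.59 with the combination. ATG101 rose with EC359 (0.51) and the combination (0.33) and fell by 0.19 with trametinib. ULK2 was low, between 0.838 and 1.80 CPM over the 12 libraries, its groups overlapped, and it was not called in any comparison.

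In the class III PI3-kinase complex, ATG14 is the subunit that directs the kinase to autophagosome formation. ATG14 (chr14:55366391-55411858, minus strand) was at 24.2, 22.6 and 24.2 CPM in control, 46.9, 45.3 and 46.6 under EC359, 27.1, 28.1 and 24.3 under trametinib, and 52.2, 51.7 and 52.9 under the combination. EC359 and combination libraries stood apart from each other and above the rest, and the lowest trametinib library lay just above the highest control library. It rose 1.95-fold with EC359 (log2 0.97 ± 0.05, adjusted p = 2.64e-24) and 2.20-fold with the combination (1.14 ± 0.05, adjusted p = 4.44e-28). The rise with trametinib (0.16 ± 0.05, adjusted p = 0.0182) was not called without trametinib replicate 2, trametinib replicate 1 or control replicate 2 (adjusted p = 0.149, 0.0872 and 0.122). PIK3C3, the catalytic subunit and also chosen after its values were seen, was higher with EC359 (0.56 ± 0.06, adjusted p = 4.72e-11), with 23.9, 24.6 and 25.9 CPM against 17.0, 17.3 and 16.0 in control. In the combination it was at 17.7, 19.6 and 20.2 CPM, below every EC359 library, and its difference from control (0.19 ± 0.07, adjusted p = 0.00891) was not called without combination replicate 3 or control replicate 3 (adjusted p = 0.0642 and 0.0575) nor under total-count scaling (adjusted p = 0.475). UVRAG rose with EC359 (0.43) and the combination (0.52). BECN1, the scaffold subunit, was slightly lower with EC359 (-0.10, adjusted p = 0.0153, or 0.0737 without control replicate 1 and 0.0562 without EC359 replicate 1) and with the combination (-0.14, adjusted p = 0.000830).

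Among the genes of phagophore growth, ATG2A, a lipid transfer protein, changed most in the combination. It was at 60.8, 60.6 and 62.6 CPM in control, 89.7, 87.0 and 88.1 under EC359, 67.1, 68.6 and 68.6 under trametinib, and 111, 109.9 and 109.0 under the combination. No groups overlapped. Its log2 change was 0.52 ± 0.03 with EC359 (adjusted p = 2.95e-20), 0.15 ± 0.03 with trametinib (adjusted p = 0.000425) and 0.84 ± 0.03 with the combination (adjusted p = 3.01e-30). ATG9A, the lipid scramblase, rose by 0.64, 0.16 and 0.79 in the same order. The PI3P-binding proteins WIPI1 and WIPI2 were higher than control with EC359 (0.68 and 0.42) and with the combination (0.41 and 0.34), and WIPI2 also with trametinib (0.10, adjusted p = 0.00537). ATG2B was not called in any treatment against control (0.08, 0.14 and 0.00), but under total-count scaling it was called higher with trametinib (0.16, adjusted p = 0.0308) and lower with the combination (-0.13, adjusted p = 0.0413).

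The conjugation genes, whose products attach ATG8 proteins to lipid, were mostly not among the genes that rose. With the combination 5 of 7 were lower (against 34.7% of all genes), 1 was higher and 1 was not called, and with EC359 3 were lower (against 30.3%) and 1 higher, 1 of the 3 being ATG4B (-0.11), which was not called without EC359 replicate 3, EC359 replicate 2 or control replicate 2 (adjusted p = 0.214, 0.0875 and 0.124) nor by DESeq2 (0.0716). ATG3, the E2-like enzyme of ATG8 conjugation (chr3:112532507-112561963, minus strand), was at 91.3, 90.5 and 84.7 CPM in control, 71.5, 70.5 and 68.6 under EC359, 86.7, 86.0 and 85.3 under trametinib, and 67.2, 69.8 and 65.2 under the combination. The EC359 and combination libraries overlapped each other and lay below all control and trametinib libraries. ATG3 fell by 0.34 with EC359 (SE 0.04, adjusted p = 2.41e-12) and by 0.40 with the combination (SE 0.04, adjusted p = 7.99e-15), and with trametinib it was at -0.05 (adjusted p = 0.352). The protease ATG4A fell by 0.36 with EC359 and by 0.29 with the combination, and its higher level with trametinib (0.21, adjusted p = 0.0356) was not called without trametinib replicates 1 or 3 or any 1 of the control libraries (adjusted p = 0.0604 to 0.180), by DESeq2 (0.0631) or with no filter (0.0528). ATG7, the E1-like enzyme, fell by 0.20 with the combination, and with EC359 it was called under total-count scaling only (-0.19, adjusted p = 0.000122). ATG4B (-0.10) and ATG16L1 (-0.17) were lower with the combination, but neither was called without combination replicate 1 (adjusted p = 0.223 and 0.138), ATG4B also not without combination replicate 2 or control replicate 2 (0.0504 and 0.130) or by DESeq2 (0.0661), and ATG16L1 not without control replicate 1 (0.0655). ATG12 was the exception and rose with EC359 (0.18, adjusted p = 0.358 under total-count scaling) and the combination (0.29). ATG5 was not called against control (-0.13 with the combination, adjusted p = 0.0737), but in the combination it was called lower under total-count scaling (-0.26, adjusted p = 0.000845), with no filter (0.00776), without combination replicate 2 (0.00234) and without control replicate 3 (0.0460), and with EC359 under total-count scaling (-0.16, adjusted p = 0.0304). The summed level per length of the 7 genes went from 233 ± 3.65 TPM in control to 202 ± 0.694 with EC359 and 192 ± 5.10 with the combination. That of the 5 receptors went from 538 ± 2.20 to 1322 ± 24.8 and 1277 ± 10.2. These sums were scaled by library totals alone. Levels with EC359 and the combination therefore stand lower against control in them than in the fold changes above, and part of the fall reflects the scaling.

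**Figure D3:**
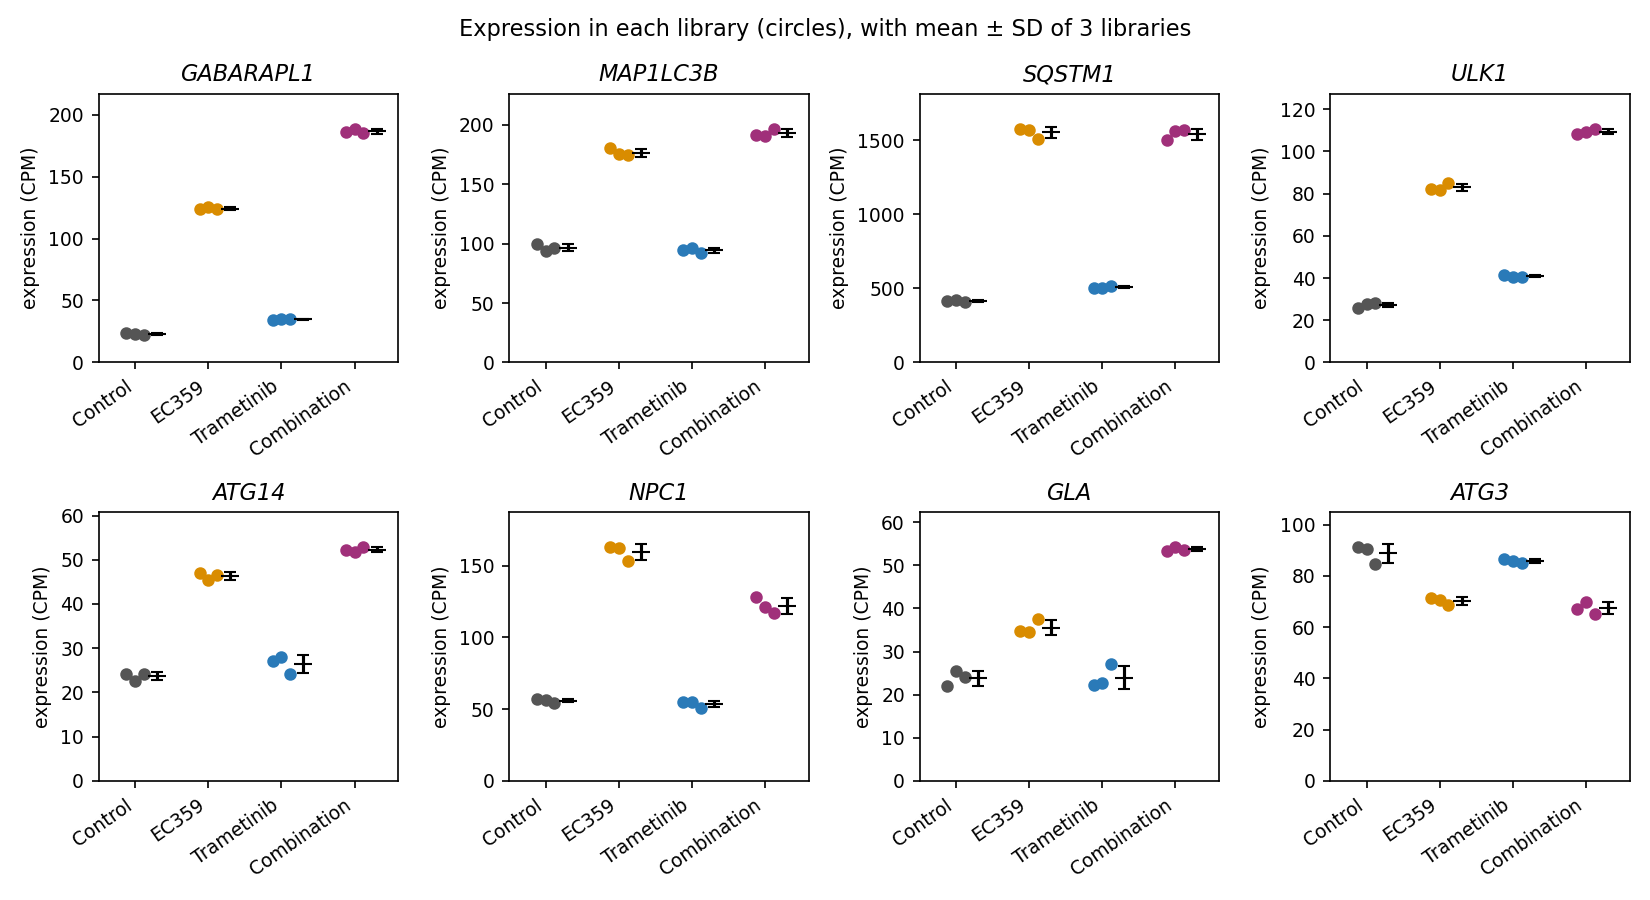
Expression (CPM, axes from 0) of 8 genes in each of the 12 libraries (circles, coloured by group), with the mean and SD of 3 libraries beside them. GABARAPL1 and ULK1 rise in the order control, trametinib, EC359, combination, NPC1 is highest with EC359, GLA is highest with the combination, and ATG3 is lowest in EC359 and combination libraries.

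Of the MiT/TFE factors, MITF had the largest change with trametinib and with the combination. MITF was at 6.50, 7.07 and 7.39 CPM in control, 7.44, 8.06 and 8.83 under EC359, 9.36, 10.2 and 10.7 under trametinib, and 12.4, 10.8 and 12.6 under the combination. The groups did not overlap, in the order control, EC359, trametinib, combination. Its rise with trametinib (log2 0.53 ± 0.09, adjusted p = 1.03e-05) and with the combination (0.77 ± 0.09, adjusted p = 1.82e-10) passed the test. Its value with EC359 (0.21 ± 0.10, adjusted p = 0.0519) did not. That value did pass without EC359 replicate 1 or control replicate 3 (adjusted p = 0.0256 and 0.0421). It also passed with DESeq2 size factors (0.0456), with counts rounded down (0.0488) and with a replicate block (0.0485). TFE3, the most abundant of the 3, rose with EC359 (0.39 ± 0.03) and the combination (0.51 ± 0.03) and was at -0.04 with trametinib. TFEB stood between 1.56 and 2.32 CPM over the 12 libraries and was not called in any comparison, with standard errors near 0.20 against control.

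Lysosomal membrane genes were all higher with EC359 and with the combination. NPC1, which exports cholesterol from the lysosome (chr18:23531499-23586617, minus strand), was at 56.9, 56.7 and 54.5 CPM in control, 163, 163 and 153 under EC359, 55.0, 54.9 and 51.1 under trametinib, and 128, 121 and 117 under the combination. Trametinib overlapped control, and combination libraries lay above both but below all EC359 libraries. It rose 2.85-fold with EC359 (log2 1.51 ± 0.04, adjusted p = 5.04e-40) and 2.18-fold with the combination (1.12 ± 0.04, adjusted p = 1.22e-33). The combination was 1.31-fold lower than EC359 alone (log2 -0.39 ± 0.03, adjusted p = 6.48e-15). The membrane glycoproteins LAMP1 and LAMP2 and the calcium channel MCOLN1 were higher by 0.12, 0.24 and 0.29 with EC359 and by 0.29, 0.48 and 0.52 with the combination. LAMP1 with EC359 was at -0.02 and not called under total-count scaling (adjusted p = 0.560). With trametinib LAMP2 alone was called (0.08, adjusted p = 0.0456), and not without any 1 of the control libraries or trametinib replicates 1 or 3 (adjusted p = 0.0522 to 0.190) or by DESeq2 (0.0516).

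The 2 subunits of the V-ATPase changed little. ATP6V1H was at 45.9, 47.6 and 47.6 CPM in control, 51.5, 54.6 and 54.5 under EC359, 51.4, 46.8 and 49.0 under trametinib, and 54.4, 54.9 and 54.1 under the combination. Trametinib overlapped control, and the EC359 and combination libraries, which overlapped each other, lay above control. ATP6V1H rose by 0.19 ± 0.04 with EC359 (adjusted p = 9.63e-05) and by 0.21 ± 0.04 with the combination (adjusted p = 1.15e-05), neither of which was called under total-count scaling (adjusted p = 0.261 and 0.118). ATP6V0D1 was lower with EC359 (-0.17 ± 0.03, adjusted p = 7.06e-06) and not called with the combination (0.05), where under total-count scaling it was called lower (-0.08, adjusted p = 0.0161).

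Lysosomal hydrolases were led by GLA, alpha-galactosidase A (chrX:101397791-101408013, minus strand). GLA was at 21.9, 25.4 and 24.0 CPM in control, 34.8, 34.4 and 37.5 under EC359, 22.3, 22.6 and 27.0 under trametinib, and 53.4, 54.2 and 53.6 under the combination. Trametinib overlapped control, EC359 lay above both, and the combination lay above all. It rose 1.49-fold with EC359 (log2 0.58 ± 0.06, adjusted p = 1.72e-11) and 2.26-fold with the combination (1.17 ± 0.06, adjusted p = 3.29e-22). The proteases CTSB, CTSD and CTSL were higher with EC359 (0.21, 0.42 and 0.17), though CTSL was at 0.04 and not called under total-count scaling (adjusted p = 0.370), and of the 3 only CTSD was also higher with the combination (0.61 ± 0.03). CTSL fell by 0.28 with trametinib and by 0.27 with the combination, CTSB by 0.09 with trametinib (not called under total-count scaling, adjusted p = 0.0524). In the combination CTSB was called under that scaling only (-0.11, adjusted p = 4.79e-05). HEXA was higher with EC359 (0.12, and -0.01 under total-count scaling) and with the combination (0.26).

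Beside the E-boxes shown above, the 6 genes that carry one did not move together in the combination. ATG14 (1.14), CTSD (0.61), MCOLN1 (0.52) and LAMP1 (0.29) were higher, ATG3 (-0.40) was lower and ATP6V0D1 (0.05, or -0.08 and called under total-count scaling) was not called. The largest increases of the 44, in GABARAPL1, ULK1 and SQSTM1, were in genes with no CACGTG in their windows.

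Compared with EC359 alone, the combination was higher in 19 of the 44 genes and lower in 10, and 15 were not called, against 49.2% of all genes changed, 24.1% upward and 25.2% downward. None of the 44 reached 2-fold in either direction in this comparison (edgeR and DESeq2, at adjusted and unadjusted p-values alike; 1.69% of all genes were higher and 1.55% lower DEGs). GLA (0.60), GABARAPL1 (0.59) and MITF (0.56) gained most, and CTSL (-0.44), NPC1 (-0.39), NBR1 (-0.39) and PIK3C3 (-0.37) lost most. Against trametinib, the combination was higher in 28 genes and lower in 7, with 9 not called (68.2% of all genes changed, 35.3% upward and 32.9% downward), or 22 higher and 12 lower under total-count scaling (23.5% and 47.6% of all genes). The count of 7 was 3 without combination replicate 3 and 4 without trametinib replicate 2 or 3. All 3 combination libraries lay above all trametinib libraries for 29 of the 44 and below them for 6 (36% and 34.3% of all genes). GABARAPL1 (2.42), SQSTM1 (1.60), ULK1 (1.42), NPC1 (1.18), GLA (1.16) and MAP1LC3B (1.03) were DEGs there (6 of 44, against 6.12% of all genes).

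The interaction asks whether the combination equals both single-agent effects added on the log2 scale. The combination was above that sum in 9 of the 44 genes and below it in 11 (30.3% of all genes departed, 14.4% above and 15.9% below), and 24 were not called. GABARAPL1 lay at the sum (-0.04 ± 0.05, adjusted p = 0.662), with a sum of 3.07 and a combination of 3.04. GLA was furthest above it (0.59 ± 0.08, adjusted p = 2.76e-07), followed by MCOLN1 (0.26 ± 0.08, adjusted p = 0.00685). PIK3C3 (-0.43 ± 0.09, adjusted p = 2.69e-04), NBR1 (-0.41 ± 0.05, adjusted p = 2.99e-09), NPC1 (-0.33 ± 0.05, adjusted p = 1.00e-06), SQSTM1 (-0.30 ± 0.03, adjusted p = 1.12e-10) and ULK1 (-0.19 ± 0.06, adjusted p = 0.00643) were below it. Among the 11 genes of the lysosome 6 were above the sum and 3 below, and among the 30 genes of the autophagy machinery 2 were above and 8 below. The 2 above were MAP1LC3B (0.16) and ATG2A (0.17). Of the 6 lysosomal genes above, CTSD was not called without trametinib replicate 2 (adjusted p = 0.0900), by DESeq2 (0.0564) or under total-count scaling (0.0836). Of the 3 below, CTSB and CTSL were not called without trametinib replicate 3 (adjusted p = 0.0551 and 0.0579). Of the 8 below, OPTN, ATG2B and RB1CC1 were not called without trametinib replicate 1 (adjusted p = 0.0709, 0.128 and 0.0648). The difference between these groups of genes was not tested.

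**Figure D4:**
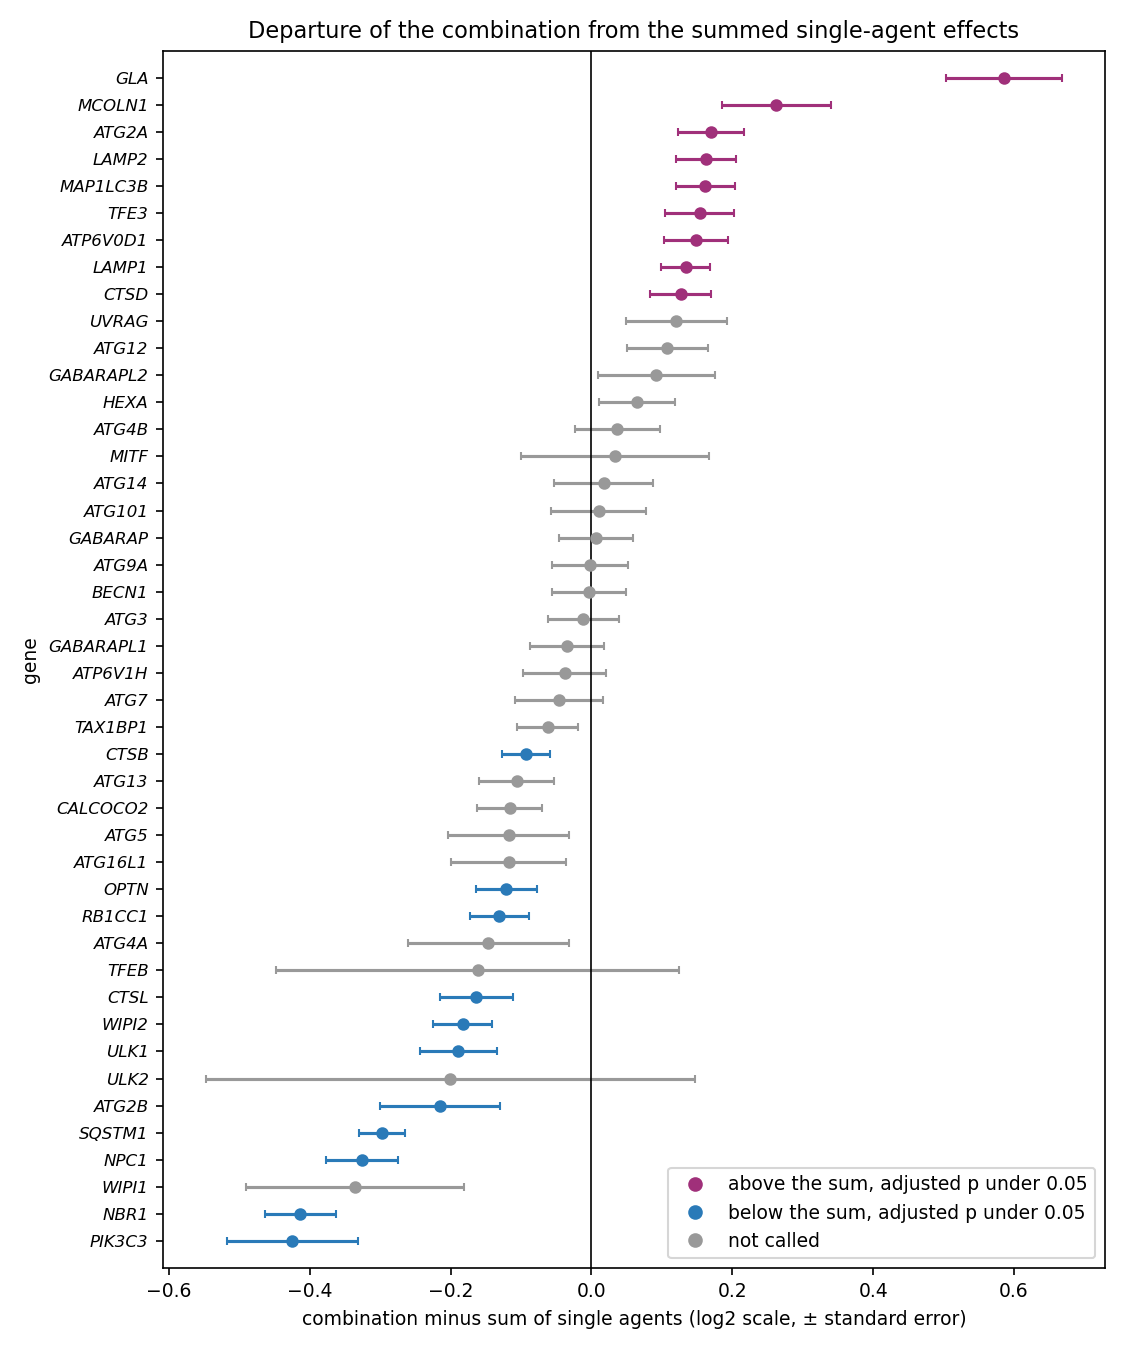
Departure of the combination from the summed effects of the single agents for the 44 genes (log2 scale, points with standard errors, sorted), coloured where the adjusted p-value was under 0.05. GLA lies furthest above 0 (0.59), and PIK3C3 (-0.43) and NBR1 (-0.41) lie furthest below.

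Other genes of the pathway, 149 in 6 lists of which 140 were tested, were counted in the same way. In the combination 73 of 140 were higher, 27 lower and 40 not called, with a median log2 fold change of 0.15, against 35% of all genes higher and 34.7% lower, and under total-count scaling 57 were higher and 50 lower (25.8% and 45.8% of all genes). With EC359 62 were higher and 36 lower, against 30.8% and 30.3% of all genes, and under total-count scaling 35 and 56 (21% and 44.9% of all genes). With trametinib 22 were higher and 12 lower, against 13% and 15.2% of all genes, and under total-count scaling 32 and 8 (16.7% and 11.9%). Genes that sense nutrients for mTORC1 at the lysosome included the largest changes of these lists. SESN2, a leucine sensor that restrains mTORC1, rose from 24.6 ± 0.513 CPM to 90.02 ± 1.87 with EC359 and 136 ± 2.09 with the combination (5.53-fold, adjusted p = 4.83e-50), while trametinib left it at 25.3 ± 0.0320. DDIT4, another inhibitor of mTORC1, rose from 8.73 ± 0.550 CPM to 52.9 ± 0.851 with EC359 but only to 27.3 ± 1.79 with the combination. FLCN, the folliculin subunit of a GTPase-activating complex for Rag proteins, rose from 29.6 ± 0.406 to 51.2 ± 2.39 with EC359 and 87.2 ± 3.30 with the combination. Of the 30 genes of that list 14 were higher and 7 lower in the combination, or 14 and 11 under total-count scaling, to be read against the same shares of all genes (35% and 34.7%, or 25.8% and 45.8%).

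The counts of the other 5 lists in the combination also stand against 35% of all genes higher and 34.7% lower, or 25.8% and 45.8% under total-count scaling. The mitophagy receptors BNIP3L and BNIP3 were highest with EC359, at 129 ± 3.10 and 147 ± 2.96 CPM, against 48.9 ± 0.608 and 68.5 ± 1.94 in control and 96.8 ± 0.603 and 117 ± 2.62 with the combination. FAM134B, a receptor for the endoplasmic reticulum, rose with the combination by 0.92 ± 0.13, from 3.57 ± 0.420 to 6.75 ± 0.273 CPM. Other receptors for that organelle in the list changed less, CCPG1 and SEC62 by 0.18 each, and TEX264 (0.08, adjusted p = 0.186) was not called. Of these 14 other receptors, 9 were higher and 2 lower (7 and 4 under total-count scaling). The 2 lower were FUNDC1 (-0.61, adjusted p = 1.32e-08) and PHB2 (-0.07, adjusted p = 0.00784), also receptors of mitophagy, so the mitophagy receptors did not move together. Among 22 further genes of the autophagy machinery, 11 were higher and 6 lower in the combination (10 and 9 under total-count scaling), led by ZFYVE1 (1.25), MAP1LC3B2 (0.95) and ATG16L2 (0.86). MAP1LC3B2 is a near-identical copy of MAP1LC3B and reads may be split between them, so the value of MAP1LC3B2 is uncertain. The same split may reach MAP1LC3B, whose counts were not whole in 9 of the 12 libraries. Among 37 other hydrolases and activators 20 were higher and 8 lower (12 and 12 under total-count scaling), led by IDUA (1.20), CTSK (1.13, at 1.42 ± 0.0906 CPM) and PSAP (0.69), the precursor of the saposins. Among 20 other membrane proteins 11 were higher and 3 lower (8 and 7 under total-count scaling), led by MCOLN3 (0.60), CLCN7 (0.58) and SLC17A5 (0.51). Of 17 other V-ATPase subunits, 8 were higher and 1 lower in the combination (6 and 7 under total-count scaling), and 10 lay above the sum of the single agents and 0 below (8 and 1 under total-count scaling), against 14.4% and 15.9% of all genes (11.7% and 19.1%), among them ATP6V0B (0.49 ± 0.05), ATP6V0C (0.32 ± 0.04) and ATP6V0A1 (0.23 ± 0.05). The other lists split 3 above that sum and 4 below for autophagy machinery, 3 and 4 for receptors, and 7 and 3 for hydrolases. Membrane proteins had 5 above and 2 below, and nutrient-sensing genes 7 and 6.

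**Figure D5:**
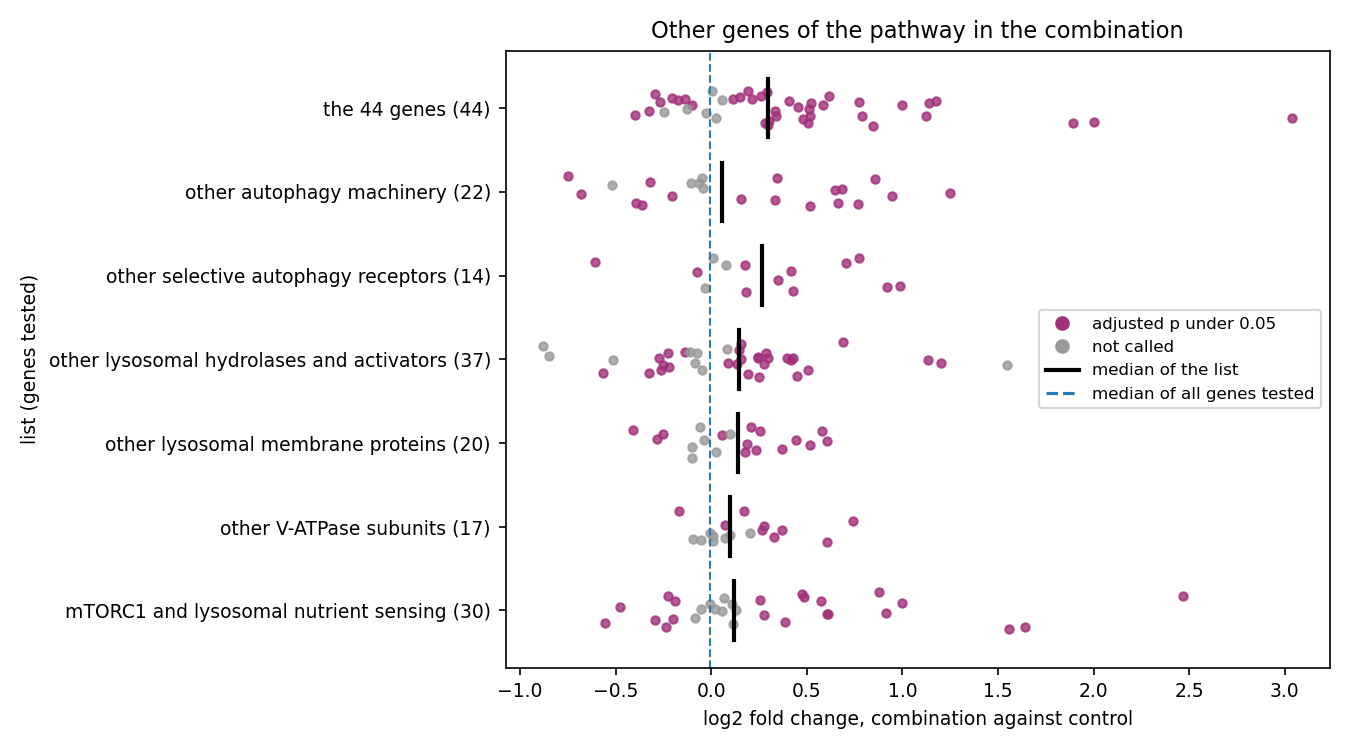
Log2 fold change in the combination against control for the 44 genes and the 6 lists of other pathway genes (1 point per tested gene, shifted vertically for legibility), with the median of each list (black bar) and the median of all genes tested (dashed line). The medians of the 44 genes and of the 6 lists lie above that of all genes, and the nutrient-sensing list holds SESN2 at 2.47.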

How the data were processed

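RNA sequencing covered 12 libraries of OVCAR8 cells. Per the labels, Illumina stranded mRNA libraries were sequenced as 100 bp pairs, and the submitters' processing notes name bcl2fastq, HISAT2 and hg38. The values are estimated counts (expected counts) that the authors made, per the file headers, with featureCounts 1.5.0-p1 on stranded pairs, with multi-mapping and overlapping reads divided as fractions. They were deposited without normalization, 1 library per file.

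Counts were rounded and tested with edgeR 4.0.16 in R 4.3.3 (TMM, filterByExpr with a minimum count of 10, robust quasi-likelihood model over the 4 groups, Benjamini-Hochberg over 14865 genes). A 2-fold change on top of the 0.05 threshold for adjusted p-values defined DEGs. CPM use TMM library sizes. TPM use the transcript lengths in the files and are scaled to the total of each library, without TMM. DESeq2 1.42.0, other scalings and filters, a replicate block and leaving out single libraries were alternatives. At these depths an upper limit of 3 counts equals 0.0883 to 0.127 CPM. The test was also run on simulated counts, but the outcome is not given and no result here rests on it. Values in every library are given for DEGs against control and, in each role, for the gene with the largest change in the combination. From each other list the 3 called genes with the largest change in the combination are named. In the list of other receptors FUNDC1, PHB2, CCPG1, SEC62 and TEX264 are also named, a choice made after their values were seen. The 44 genes, the other lists and the tests were chosen with earlier results of these data known. NPC1 and ATG7, BECN1, SQSTM1 and HEXA share exon bases with genes on the opposite strand, which stranded counting separates.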

Additional observations from a re-analysis of the deposited data

Results flagged for a closer look

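The effect of EC359 in the presence of trametinib differed from its effect without trametinib in 20 of the 44 genes, against 30.3% of all genes, as tested by the interaction term of edgeR. The values below are log2 differences. The difference was positive, meaning a higher log2 effect of EC359 in the presence of trametinib, for GLA (0.59), MCOLN1 (0.26), ATG2A (0.17), LAMP2 (0.16), MAP1LC3B (0.16), TFE3 (0.15), ATP6V0D1 (0.15), LAMP1 (0.13) and CTSD (0.13). For ATP6V0D1 the effect of EC359 was a decrease without trametinib (-0.17) and was not called with it (-0.02), but under total-count scaling it was called lower with it as well (-0.19, adjusted p = 8.01e-07). The difference was negative for PIK3C3 (-0.43), NBR1 (-0.41), NPC1 (-0.33), SQSTM1 (-0.30), ATG2B (-0.22), ULK1 (-0.19), WIPI2 (-0.18), CTSL (-0.16), RB1CC1 (-0.13), OPTN (-0.12) and CTSB (-0.0927).

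Of the 20, 13 were called in every alternative. Of the 12 libraries left out singly, the call was lost with 9 for ATG2B, 7 for CTSB, 6 for CTSD, 6 for OPTN, 3 for TFE3, 2 for RB1CC1 and 2 for CTSL. By DESeq2, ATG2B and CTSD were not called either (adjusted p = 0.0794 and 0.0564), nor was CTSD under total-count scaling (0.0836). The highest adjusted p-values without 1 library were 0.155 for ATG2B and 0.110 for CTSB without EC359 replicate 1, 0.0995 for CTSD without control replicate 2, 0.155 for OPTN and 0.0714 for CTSL without combination replicate 3, 0.0828 for RB1CC1 without combination replicate 2 and 0.0620 for TFE3 without trametinib replicate 2.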

How the results depend on the processing

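Most counts of changed genes among the 44 kept within 1.5 times their value. Of the 140 other pathway genes, total counts moved those higher with EC359 from 62 to 35 and lower from 36 to 56, those lower with the combination from 27 to 50, and those lower in the combination against trametinib from 33 to 57 (32.9% and 47.6% of all genes). A 1.5-fold in place of a 2-fold minimum raised the higher DEGs to 8 with EC359, 2 with trametinib, 12 with the combination and 2 in the combination against EC359, where 9.42%, 1.63%, 14.3% and 4.55% of all genes passed the same rule. The genes lower in the combination than with trametinib numbered 12 with total counts and from 3 (without combination replicate 3) to 7 when single libraries were left out, with 4 without trametinib replicate 2 or 3. Values near 0 changed sign without changing a call: the interaction of ATG14 (-0.0121 with total counts, -0.0429 to 0.0584 without single libraries), of ATG3 (-0.0373 to 0.0225 without single libraries) and of MITF (-0.0233 to 0.0996), and GLA with trametinib (-0.0856 to 0.0639). The cause was not tested. Replicate numbers did not pair the samples (correlations of deviations from -0.0669 to 0.0304 over 18 same-numbered pairs), and the replicate block gave 31 higher and 5 lower with EC359, 14 and 3 with trametinib, and 30 and 9 with the combination, with ATG5 called lower in the combination (adjusted p = 0.0478) and MITF higher with EC359 (0.0485), the interaction of ATG2B no longer called (0.0540), and no other call among the 44 changed. Calls held in every alternative for 26 of 35 genes with EC359, 13 of 17 with trametinib and 32 of 38 with the combination. For the combination they held for 21 of 29 genes against EC359 and 25 of 35 against trametinib. Depth limits ULK2 and TFEB most.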
